A study of Mus musculus with 18 samples.

Results

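The 45 genes described here encode tubulins and the proteins that fold, nucleate and chemically mark them, out of 30142 genes measured in sorted mouse lung epithelium. They were taken by name from the array annotation: symbols starting with Tuba, Tubb, Tubg, Tubd, Tube, Ttll or Agbl, and the cofactors Tbca to Tbce, with 1 probe set per gene. The set holds 5 alpha-tubulins, 8 beta-tubulins, 4 gamma-, delta- and epsilon-tubulins, 5 proteins of the gamma-tubulin complex, 5 folding cofactors, 13 tubulin tyrosine ligase-like (Ttll) enzymes and 5 carboxypeptidases of the Agbl family. Tuba1b, Tuba3a and Tuba3b have only probe sets that carry several gene symbols, 3 in all, and were not used. The pseudogenes Tubb2a-ps2 and Tubb4b-ps1 were left out.

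All cells came from TCF/Lef:H2B/GFP mice of 8 to 12 weeks, in which Wnt/beta-catenin responsive TCF/Lef sites drive a green fluorescent histone, and all 3 groups carry this reporter. Lungs were removed with trachea and bronchi, although the tissue label reads distal lungs, and were digested with dispase for 45 min. Cells bearing CD31 or CD45 were depleted on beads, EpCAM-bearing cells were enriched, and live EpCAM+ cells were sorted by green fluorescence into Wnthigh, Wntlow and Wntnegative. Each group has 6 arrays, 1 per sort from a pool of 3 to 4 animals, made from 8 ng of total RNA. The arrays fall into a first run (experiments 2 to 5) and a second run (experiments 7 to 9) with 3 arrays per group in each, and array medians were 4.62 to 4.77 in the first run and 3.55 to 3.69 in the second.

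Microtubules are polymers of alpha- and beta-tubulin pairs, which need a chaperonin and the Tbc cofactors to fold and pair. Gamma-tubulin and its Tubgcp partners form the ring from which a microtubule grows, and delta- and epsilon-tubulin serve the triplet microtubules of centrioles and basal bodies. The tails of assembled tubulin carry marks known as the tubulin code: Ttll enzymes add chains of glutamate or glycine, and Agbl enzymes trim glutamates away. In the lung these marks are best known from the motile cilia of airway ciliated cells, whose axonemes are built of long-lived, heavily modified microtubules.

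Values are deposited log2 expression values, and every difference below is a log2 difference within runs from limma with the run as a block, given with its standard error (SE) and an adjusted p over all 30142 genes. A gene passed when the adjusted p was under 0.05. The background limit of an array was the 95th percentile of its 23 antigenomic control probe sets. By this limit 28 members were above background in every group and run, 10 in some, and 7 in none (Agbl1, Ttll2, Ttll11, Tubal3, Tubb1, Tubb3 and Tubb4a). With olfactory receptor genes as the reference, a choice made after seeing the data, 34 were above in every group and run, 5 in some and 6 in none. Ttll11 moved from none to some, and further members moved from some to every group and run.

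The groups also differed in cell type markers. All 12 measured ciliated cell markers were higher in Wnthigh than in Wntlow and higher in Wntlow than in Wntnegative. Their mean log2 level ran from 14.38 to 14.98 on Wnthigh arrays, from 9.22 to 13.83 on Wntlow arrays and from 4.65 to 7.53 on Wntnegative arrays. Of 10 alveolar type II markers 9 were lower in Wnthigh than in Wntnegative, all 6 club and 7 goblet markers were higher in Wntlow than in Wntnegative, and all 9 measured proliferation markers were lower in Wnthigh than in Wntlow. The 4 epithelial markers (Epcam, Cdh1, Krt8 and Krt18) were well above background in every group, while 4 of 6 endothelial markers (Pecam1, Cdh5, Emcn and Cldn5) and 5 of 6 immune markers (all but Lyz1) were at background throughout. The other endothelial markers were Kdr, with mean levels of 6.48, 10.58 and 4.57 in Wnthigh, Wntlow and Wntnegative, and Esam, with 5.68, 7.02 and 9.94. Lyz1 had mean levels of 14.2 in Wnthigh, 17.001 in Wntlow and 19.1 in Wntnegative. In bulk samples fewer cells of a type and less RNA per cell cannot be told apart, and the part of these shifts in the differences below was not tested.

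Of the 45 members 25 were higher and 7 lower in Wnthigh than in Wntnegative and 13 did not pass, where 15.7% of all genes were higher and 24.6% lower, and 40.3% passed in either direction. With a difference of at least 1 as well, 17 were higher and 4 lower, against 6.62% and 7.28% of all genes. The median difference was 0.28 over the members and −0.046 over all genes. Ttll6, Agbl2, Ttll3 and Ttll9 led upward with 8.08, 5.65, 5.23 and 4.26, and Tuba4a, Ttll7, Tubb5 and Tubgcp4 led downward with −3.01, −2.81, −1.68 and −1.04. In both runs 22 members were higher and 4 lower on every Wnthigh array than on any Wntnegative array, against 12.9% and 17.8% of all genes.

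In Wntlow 19 members were higher and 2 lower than in Wntnegative and 24 did not pass, where 12.3% of all genes were higher and 13.2% lower, and 7 and 1 of them reached a size of 1, against 4.32% and 3.32%. The median difference was 0.16 over the members and −0.029 over all genes. In both runs 12 members were higher and 2 lower on every Wntlow than on any Wntnegative array, against 8.98% and 6.57% of all genes. The 2 that were lower were Ttll7 and Tubgcp4.

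Wnthigh against Wntlow gave 19 members higher and 6 lower, where 11.4% of all genes were higher and 16.4% lower. With a size of at least 1 there were 16 and 3, against 4.27% and 4.83%. The median was 0.088 over the members and −0.013 over all genes. Without overlap in either run 19 were higher and 4 lower, against 8.04% and 10.3% of all genes. These comparisons share arrays, so they are not independent of each other. Every member that passed in a comparison had the same sign in both runs, 32, 21 and 25 members in the order given.

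Since 38 of the 45 members and 16014 of all genes passed a filter on dim genes, the shares were also read within that filter. It kept genes above the background limit on at least 3 arrays of a run, whatever their group. With 3 arrays per group and run, a gene can pass through the group where it is high, so these shares are no separate support. There 24 members were higher and 7 lower in Wnthigh than in Wntnegative, against 27.9% and 40% of the genes, 19 and 2 in Wntlow than in Wntnegative, against 23.7% and 22.5%, and 18 and 6 in Wnthigh than in Wntlow, against 20.8% and 31.5%. Each run was also fitted alone. In the first run Wnthigh against Wntnegative gave 23 higher and 4 lower members (12.2% and 17.7% of all genes), and in the second 22 and 4 (11.3% and 15%). Wntlow against Wntnegative gave 6 and 0 in the first run (4.74% and 3.66%; 2 lower at an unadjusted p under 0.05 in limma) and 13 and 2 in the second (8.32% and 6.52%). Wnthigh against Wntlow gave 15 and 3 (4.8% and 6.11%), then 19 and 4 (8.65% and 11.5%). With no block the offset between the runs counts as spread, and the 3 comparisons gave 14 and 2 (4.89% and 4.48%), 4 and 0 (2.79% and 0.733%; 1 lower at an unadjusted p under 0.05) and 8 and 1 (2.39% and 2.09%).

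**Figure D1:**
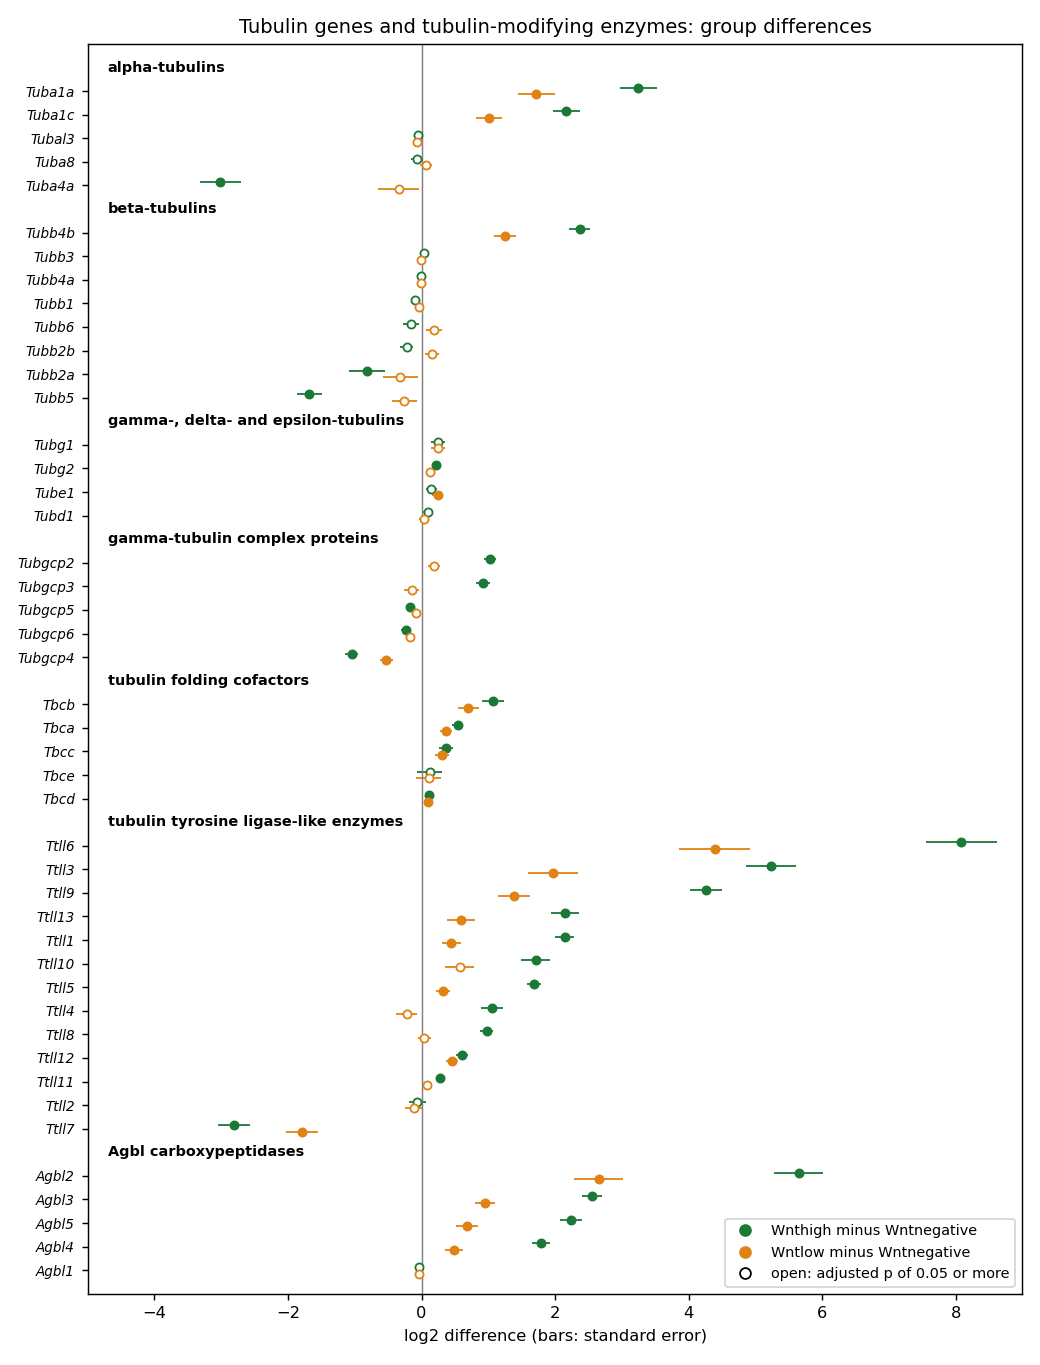
Log2 differences from Wntnegative (x axis; bars are standard errors) of all 45 members (y axis, grouped by role), green for Wnthigh and orange for Wntlow, with open circles for an adjusted p of 0.05 or more. The Ttll and Agbl enzymes reach the highest differences, up to 8.08 for Ttll6, and the green points lie to the right of the orange ones for most enzymes.

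Over the 3 comparisons the members fell into a few patterns. Higher in each step from Wntnegative through Wntlow to Wnthigh were 13 members, a pattern shown by 4.894% of all genes. They were Tuba1a, Tuba1c, Tubb4b, Agbl2 to Agbl5, Ttll1, Ttll3, Ttll5, Ttll6, Ttll9 and Ttll13. For Ttll1, Ttll5, Ttll13 and Agbl4 the call of Wntlow against Wntnegative was lost in at least 1 fit without 1 experiment. A Tuba1c probe set of chromosome 15, not the one counted here, did not pass for Wnthigh against Wntlow. Another 6 passed as higher in Wnthigh against both other groups with no call between those groups, a pattern of 5.066% of all genes. These were Ttll4, Ttll8, Ttll10, Ttll11, Tubgcp2 and Tubgcp3. The cofactors Tbca to Tbcd and Ttll12 were higher in Wnthigh and in Wntlow than in Wntnegative, without a call between Wnthigh and Wntlow. Among all genes 2.923% showed this pattern. No comparison called 10 members, where 52.55% of all genes were called in none: Agbl1, Tbce, Ttll2, Tuba8, Tubal3, Tubb1, Tubb3, Tubb4a, Tubd1 and Tubg1.

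Promoter sequences from RefSeq (GRCm38.p6) were found for 39 of the 45 members, and are shown because many of these genes are higher together in Wnthigh. The 250 bases before each start were searched on both strands. The letters GTTGCC are 1 arm of the X-box bound by RFX factors, which act in ciliated cells, and appear as GGCAAC when the arm lies on the opposite strand. The forkhead letters searched were GTAAACA on either strand, and no match to these overlapped an X-box arm. The X-box arm occurred in 7 of the 15 matched genes that were higher by at least 1 in Wnthigh against Wntnegative (46.67%), in 0 of the 4 that were lower by that size and in 2 of the 20 others (10%). Among all 27025 genes with a promoter sequence, 11.82% had it, as did 10.43% of all 32851 promoters. The share among other genes higher by at least 1 was not computed. For Tuba1c, which is among the 7, the promoter lies on chromosome 15 and the probe set identifier carries chromosome 13. The forkhead letters occurred in 2 of the 15 (Agbl5 and Ttll10) against 3.537% of all genes. A match describes the letters only and was not tested for binding.

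The raised genes with the X-box arm were Agbl2, Agbl3, Ttll3, Ttll5, Ttll9, Ttll10 and Tuba1c, and the 6 stretches below set 4 of them beside 2 strongly raised genes without a match. Each ends at or shortly before the annotated start, reads 5′ to 3′ on the gene's strand, and has the X-box arm in capitals. Ttll9 (chr2:152962349-152962484, plus strand) has it 118 and 11 bases before the start, once on each strand, and Agbl3 (chr6:34780322-34780431, plus) at 21 and 13 bases with the 2 copies on opposite strands. Ttll3 (chr6:113392346-113392455, plus) has 1 copy 65 bases before the start and Agbl2 (chr2:90782595-90782704, plus) 1 copy 80 bases before it. Ttll6 (chr11:96133676-96133785, plus) and Tubb4b (chr2:25224703-25224812, minus) have none in their 250 bases.
Ttll9: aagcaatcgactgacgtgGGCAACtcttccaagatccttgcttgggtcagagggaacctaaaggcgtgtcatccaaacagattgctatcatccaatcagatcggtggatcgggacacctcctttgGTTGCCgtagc
Agbl3: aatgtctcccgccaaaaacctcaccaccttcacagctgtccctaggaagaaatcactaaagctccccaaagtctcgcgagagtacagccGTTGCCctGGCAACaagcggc
Ttll3: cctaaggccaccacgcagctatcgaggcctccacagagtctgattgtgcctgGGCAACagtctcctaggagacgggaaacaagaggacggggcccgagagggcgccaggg
Agbl2: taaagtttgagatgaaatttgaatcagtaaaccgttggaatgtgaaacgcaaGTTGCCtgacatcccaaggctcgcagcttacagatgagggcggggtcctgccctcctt
Ttll6: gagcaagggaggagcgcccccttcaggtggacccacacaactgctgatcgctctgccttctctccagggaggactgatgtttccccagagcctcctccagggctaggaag
Tubb4b: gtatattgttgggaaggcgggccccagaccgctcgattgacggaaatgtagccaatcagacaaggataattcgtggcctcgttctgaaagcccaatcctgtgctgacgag

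Among the alpha-tubulins, Tuba1a and Tuba1c were higher and Tuba4a was lower in Wnthigh than in Wntnegative, while Tuba8 and Tubal3 did not pass. Tuba1a, an alpha-tubulin abundant in neurons, read 16.90, 16.67 and 16.76 on the Wnthigh arrays of the first run and 17.16, 17.32 and 17.37 on those of the second. On Wntlow arrays Tuba1a read 16.34, 15.18 and 15.62, then 14.64, 16.13 and 15.14. On Wntnegative arrays Tuba1a read 14.26, 14.35 and 14.18, then 13.42, 13.35 and 13.17. The 3 groups did not overlap in either run. Tuba1a differed by 3.24 (SE 0.28, adjusted p = 9.67e-08 by limma) between Wnthigh and Wntnegative, by 1.72 between Wntlow and Wntnegative and by 1.52 between Wnthigh and Wntlow.

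Tuba1c, a close relative of Tuba1a, read 17.29, 16.86 and 17.08 in Wnthigh, 16.81, 16.08 and 16.20 in Wntlow and 15.35, 15.03 and 15.53 in Wntnegative in the first run. The second run gave Tuba1c values of 17.65, 17.81 and 18.02, of 15.76, 16.64 and 16.27, and of 15.50, 15.25 and 15.04 in the same order. The groups kept this order in both runs without overlap, and Wnthigh exceeded Wntnegative by 2.17 (SE 0.20, adjusted p = 1.88e-07). The identifier of this probe set carries chromosome 13, whereas the RefSeq gene table places Tuba1c on chromosome 15. A Tuba1c probe set of chromosome 15 with lower values, examined after the data were seen, gave 1.18 (adjusted p = 8.31e-05) for Wnthigh against Wntnegative, 0.84 (0.00367) for Wntlow against Wntnegative and 0.35 (0.220) for Wnthigh against Wntlow. Alpha-tubulin genes are near-identical in sequence, so how far each probe set measures its own gene is uncertain.

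Tuba4a went the other way. Its gene encodes no C-terminal tyrosine, the residue that many alpha-tubulins lose and regain. On Wnthigh arrays Tuba4a read 6.81, 8.97 and 8.04 in the first run and 5.18, 5.51 and 5.79 in the second. Its Wntlow values were 9.71, 10.73 and 9.94, then 8.88, 8.75 and 8.32, and its Wntnegative values were 10.32, 10.49 and 10.67, then 8.81, 9.32 and 8.76. Wnthigh lay below both other groups on every array of each run, whereas Wntlow and Wntnegative overlapped. The difference was −3.01 (SE 0.31, adjusted p = 6.82e-07) for Wnthigh against Wntnegative and −2.67 (adjusted p = 9.60e-06) against Wntlow, and for Wntlow against Wntnegative it was −0.34 (95% interval −0.997 to 0.313).

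Tuba8 lay between 6.48 and 7.01 in the first run and between 4.36 and 4.81 in the second, with all groups overlapping. Tubal3, a divergent alpha-tubulin, stayed at background, between 4.26 and 4.56 in the first run and 3.33 and 3.78 in the second. The 95% intervals for Wnthigh against Wntnegative were −0.26 to 0.11 for Tuba8 and −0.19 to 0.09 for Tubal3.

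Among the 8 beta-tubulins, Tubb4b was the single member that was higher in Wnthigh than in Wntnegative, Tubb5 and Tubb2a were lower, and 3 (Tubb1, Tubb3 and Tubb4a) were at background. Tubb4b, the beta-tubulin known from ciliary axonemes, read 13.33, 13.04 and 13.39 in Wnthigh in the first run and 12.52, 12.54 and 12.40 in the second. On Wntlow arrays Tubb4b read 12.70, 12.03 and 12.40, then 10.93, 11.48 and 10.94. On Wntnegative arrays Tubb4b read 11.19, 11.13 and 11.27, then 9.31, 9.93 and 10.18. As with Tuba1a, the groups formed 3 separate steps in each run. The steps measured 1.24 (adjusted p = 4.99e-05) from Wntnegative to Wntlow and 1.12 (adjusted p = 5.98e-05) from Wntlow to Wnthigh, and 2.37 in all (SE 0.16, adjusted p = 1.18e-08).

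Tubb5, a beta-tubulin expressed in many cell types and abundant in dividing cells, was lower in Wnthigh than in either other group. In Wnthigh Tubb5 read 8.97, 9.40 and 9.32, then 7.08, 7.23 and 7.30. In Wntlow Tubb5 read 10.37, 11.08 and 10.51, then 8.55, 8.75 and 8.55. In Wntnegative Tubb5 read 10.67, 10.38 and 10.79, then 9.83, 9.08 and 8.61. No Wnthigh array reached the lowest array of another group in its run. Tubb5 differed by −1.68 (SE 0.19, adjusted p = 1.80e-06) against Wntnegative and by −1.42 (adjusted p = 2.60e-05) against Wntlow, and Wntlow against Wntnegative gave −0.26 (95% interval −0.66 to 0.14). The proliferation markers were also lower in Wnthigh than in Wntlow, with a mean level of 5.05 to 5.93 against 6.71 to 7.90 in the first run and 3.97 to 4.16 against 4.79 to 4.95 in the second. Their part in the Tubb5 difference was not tested.

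Tubb2a, a widely expressed beta-tubulin that is abundant in neurons, had a smaller difference of −0.82 (SE 0.27, adjusted p = 0.0214) for Wnthigh against Wntnegative, and the groups overlapped in the first run. The call was lost without experiment 2 or without experiment 7, at −0.69 and −0.66, and in each run fitted alone. Tubb2b and Tubb6 passed only for Wnthigh against Wntlow, as lower in Wnthigh. Of their Wnthigh arrays 5 and 6 of 6 were at the background limit. Their second-run Wntlow arrays were below that limit too, so no size is given. The Tubb6 call was lost without experiment 3, 4, 5 or 8 and with the experiment as a block, and the Tubb2b call was lost without the Wntlow arrays of experiments 3 and 4. Tubb3, the neuronal beta-tubulin, read 3.49 to 3.61 on all arrays of the first run and 2.94 to 3.09 on those of the second, with a difference of 0.032 (95% interval −0.031 to 0.095) between Wnthigh and Wntnegative. Tubb1, the beta-tubulin of platelets, and Tubb4a, a beta-tubulin of brain, were likewise at background, between 3.08 and 4.58 and between 3.37 and 4.43.

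**Figure D2:**
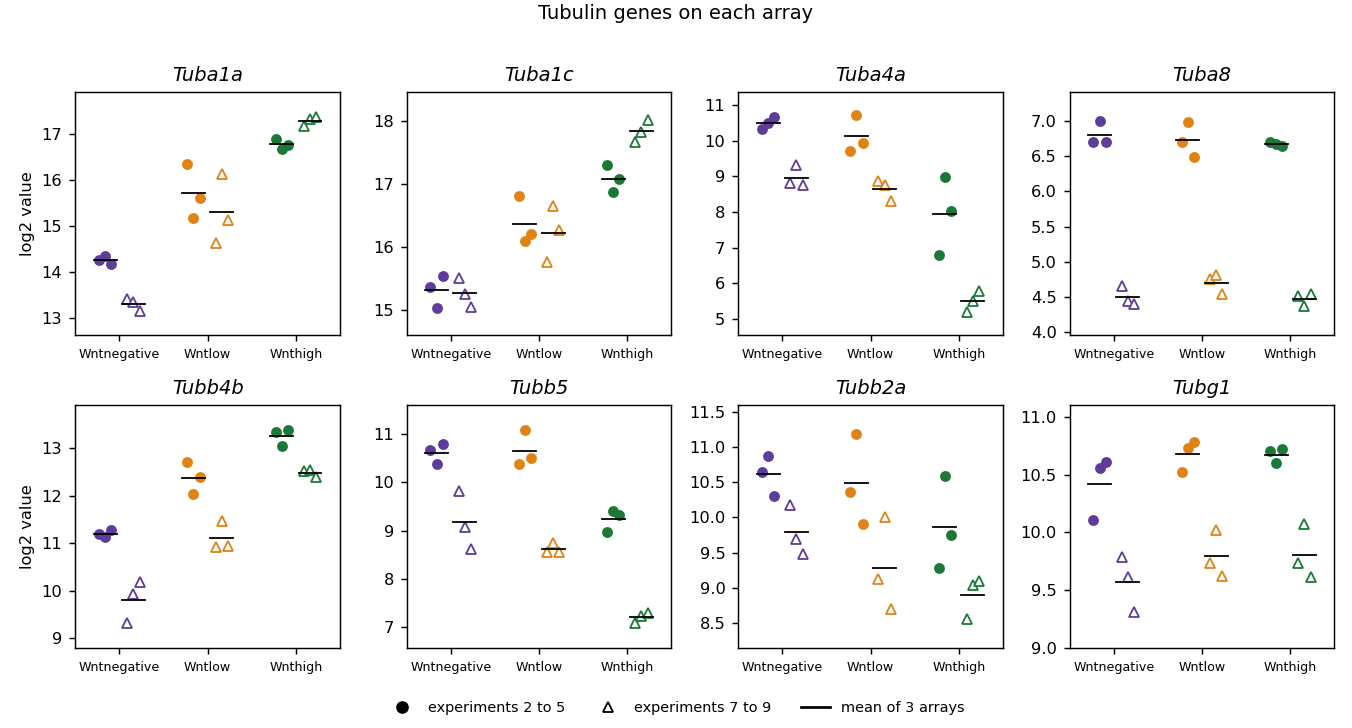
Log2 values (y axis, own scale per panel) of 8 tubulin genes on each array by group, with circles for experiments 2 to 5, triangles for experiments 7 to 9 and a bar at the mean of 3 arrays. Tuba1a, Tuba1c and Tubb4b step up from Wntnegative to Wnthigh in both runs, Tuba4a and Tubb5 drop in Wnthigh, and Tuba8 and Tubg1 overlap between groups.

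The nucleating and centriolar tubulins moved little. Gamma-tubulin Tubg1 read 10.71, 10.60 and 10.72 in Wnthigh, 10.52, 10.73 and 10.79 in Wntlow and 10.11, 10.56 and 10.61 in Wntnegative in the first run. The second run gave Tubg1 values of 9.74, 10.07 and 9.61, of 9.74, 10.02 and 9.63, and of 9.78, 9.61 and 9.31. Wnthigh minus Wntnegative was 0.25 (95% interval 0.019 to 0.47, adjusted p = 0.0801), and the groups overlapped in both runs. Tubg2, the second gamma-tubulin gene, passed at 0.22 (adjusted p = 0.0123) but overlapped as well. Its call was lost in each run fitted alone and with quantile normalization within runs.

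Tubd1, which encodes delta-tubulin, read 7.10, 7.22 and 7.13 in Wnthigh, 7.39, 6.98 and 7.09 in Wntlow and 7.09, 6.93 and 7.08 in Wntnegative in the first run. For Tubd1 the second run gave 5.80, 5.90 and 5.80, then 5.80, 5.80 and 5.48, then 5.84, 5.80 and 5.63. Wnthigh lay just above Wntnegative on every array of the first run and overlapped it in the second, with a difference of 0.098 (95% interval −0.060 to 0.26, adjusted p = 0.327). Tube1, which encodes epsilon-tubulin, was near the background limit, with 5.22, 5.20 and 5.20 in Wnthigh, 5.59, 5.00 and 5.43 in Wntlow and 4.90, 5.03 and 5.01 in Wntnegative in the first run. The second-run values of Tube1 were 3.67, 3.64 and 3.64, then 3.84, 3.64 and 3.64, then 3.64, 3.58 and 3.52. Tube1 passed for Wntlow against Wntnegative (adjusted p = 0.0325) and in no other comparison, a call lost without experiment 3, 5, 7 or 9 and with the experiment as a block. All 6 of its Wntnegative arrays were at the limit, so no size is given. In Wnthigh against Wntlow no gene of these 4 passed in limma, and 0 did at an unadjusted p under 0.05.

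The gamma-tubulin complex proteins split. Tubgcp2 and Tubgcp3, which with gamma-tubulin form the small nucleating complex, were higher in Wnthigh than in Wntnegative by 1.03 (SE 0.0905, adjusted p = 1.29e-07) and 0.92 (SE 0.11, adjusted p = 3.04e-06). Tubgcp4, Tubgcp5 and Tubgcp6, which complete the larger ring, were lower, with differences of −1.04 (SE 0.0966, adjusted p = 2.32e-07), −0.18 and −0.23. Tubgcp4 read 8.45, 8.43 and 8.56 in Wnthigh, 8.76, 9.10 and 8.95 in Wntlow and 9.36, 9.20 and 9.53 in Wntnegative in the first run. For Tubgcp4 the second run gave 6.60, 7.05 and 6.71, then 7.38, 7.38 and 7.33, then 7.85, 8.26 and 7.86. Its 3 groups did not overlap in either run and formed descending steps of −0.53 from Wntnegative to Wntlow and −0.52 from Wntlow to Wnthigh.

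Tubgcp2 read 9.54 to 9.91 in Wnthigh, 8.93 to 9.21 in Wntlow and 8.63 to 8.83 in Wntnegative in the first run, and 8.55 to 8.93, 7.62 to 7.88 and 7.58 to 7.73 in the second. Tubgcp3 read 9.74 to 10.43, 8.70 to 9.17 and 9.02 to 9.05, then 8.13 to 8.56, 7.25 to 7.48 and 7.47 to 7.64. Wnthigh stood clear of both other groups for these genes, and Wntlow minus Wntnegative was 0.19 (95% interval −0.00185 to 0.383) and −0.15 (−0.38 to 0.079). For Tubgcp6 the groups overlapped in both runs and the call was lost without experiment 8. The calls of Tubgcp5 and Tubgcp6 were lost in each run fitted alone, and that of Tubgcp5 also with arrays centred on their medians.

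Most folding cofactors were higher in Wnthigh and in Wntlow than in Wntnegative, with no call between Wnthigh and Wntlow. Against Wntnegative 4 of 5 passed as higher in Wnthigh and 4 of 5 in Wntlow. Between Wnthigh and Wntlow 0 of 5 passed in limma, 1 at an unadjusted p under 0.05. Of all genes 15.7% were higher in Wnthigh and 12.3% in Wntlow than in Wntnegative, and 27.9% passed between Wnthigh and Wntlow. Tbcb, which binds alpha-tubulin, was higher by 1.07 (SE 0.16, adjusted p = 4.72e-05) and 0.70 (adjusted p = 0.00405), and its Wnthigh minus Wntlow interval was 0.0195 to 0.709, at an adjusted p of 0.118. Tbca, which binds beta-tubulin, was higher by 0.54 (adjusted p = 8.97e-05) and 0.37 (adjusted p = 0.00465). Tbcc, which triggers release of the finished pair, was higher by 0.37 and 0.31, and Tbcd, a beta-tubulin cofactor of the pairing complex, by 0.11 and 0.10. In the second run the Tbcc values of Wnthigh and of Wntlow overlapped those of Wntnegative. For Tbcd some arrays of every group shared 1 value, 8.86 in the first run and 7.32 in the second.

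For Tbcd the calls were lost in several fits that left out 1 experiment, in Wnthigh without 7 or 9 and in Wntlow without 2, 3, 5, 7 or 9, and the Wntlow call of Tbcc was lost without 3, 4, 7 or 8. Tbce, the alpha-tubulin partner of Tbcd, did not pass. It read 9.67, 9.53 and 10.23 in Wnthigh, 9.28, 9.17 and 10.26 in Wntlow and 9.58, 9.55 and 9.95 in Wntnegative in the first run. The second-run values of Tbce were 8.37, 8.33 and 8.18, then 8.87, 8.33 and 8.33, then 7.87, 8.33 and 8.29. The arrays of experiment 5 were the highest of their run in every group, and the interval for Wnthigh minus Wntnegative was −0.28 to 0.53.

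Of the 13 Ttll enzymes 11 were higher in Wnthigh than in Wntnegative, 8 of them by at least 1, and Ttll7 was lower. The median over the 13 was 1.68, against −0.046 over all genes. Against Wntlow 10 were higher and 1 lower, and Wntlow against Wntnegative gave 7 higher and 1 lower. Of all genes 15.7% were higher and 24.6% lower in Wnthigh than in Wntnegative, and 6.62% were higher by at least 1. The shares were 11.4% and 16.4% in Wnthigh against Wntlow, and 12.3% and 13.2% in Wntlow against Wntnegative. The glycylases and the glutamylases both held genes that were higher in Wnthigh.

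Ttll6, a polyglutamylase that lengthens glutamate chains and is known from cilia, had the highest difference of all members. On Wnthigh arrays Ttll6 read 13.57, 12.76 and 14.39, then 12.39, 11.81 and 11.64. On Wntlow arrays Ttll6 read 10.93, 7.62 and 11.68, then 7.40, 8.82 and 7.95. On Wntnegative arrays Ttll6 read 5.74, 4.97 and 4.99, then 4.07, 4.04 and 4.25. The groups were separate in both runs, with the Wntlow array of experiment 4 far below the other Wntlow arrays of its run. Wnthigh exceeded Wntnegative by 8.08 (SE 0.53, adjusted p = 8.33e-09), in the first run by 8.34 and in the second by 7.83. Since 5 of 6 Wntnegative arrays were at the background limit, the difference is at least 7.68 when those arrays are set to the limit. The step from Wntnegative to Wntlow was 4.39 (adjusted p = 2.32e-05; at least 3.99) and the step from Wntlow to Wnthigh was 3.69 (adjusted p = 5.09e-05).

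Ttll9, a Ttll enzyme known from sperm flagella, gave 9.86, 9.45 and 9.96 in Wnthigh, 7.97, 6.06 and 7.19 in Wntlow and 5.52, 5.50 and 5.40 in Wntnegative in the first run. For Ttll9 the second run gave 8.50, 8.71 and 8.47, then 5.14, 5.82 and 5.52, then 4.62, 4.04 and 4.31. The groups were separate in both runs, and the 6 Wnthigh arrays were close together within each run. The differences were 4.26 (SE 0.24, adjusted p = 4.39e-09; at least 4.01 with Wntnegative at the limit), 1.39 (adjusted p = 0.000387; at least 1.14) and 2.88 (adjusted p = 1.40e-06) for Wnthigh against Wntnegative, Wntlow against Wntnegative and Wnthigh against Wntlow.

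Ttll1 is the catalytic subunit of a polyglutamylase complex of airway cilia and sperm. It gave 11.08, 10.88 and 11.25 in Wnthigh, 9.91, 9.44 and 9.68 in Wntlow and 9.04, 9.12 and 9.23 in Wntnegative in the first run. The second-run values of Ttll1 were 9.79, 10.15 and 9.81, then 7.93, 8.25 and 7.57, then 7.76, 7.39 and 7.56. Wnthigh stood clear in both runs, and Wntlow overlapped Wntnegative in the second. The difference from Wntnegative was 2.14 (SE 0.14, adjusted p = 7.44e-09) in Wnthigh and 0.45 (adjusted p = 0.0247) in Wntlow, and the Wntlow call was lost without experiment 3, 5 or 8.

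Among the other glutamylases, Ttll13 read 8.24, 7.32 and 7.88 in Wnthigh, 6.55, 5.41 and 6.23 in Wntlow and 4.99, 5.15 and 5.46 in Wntnegative in the first run. For Ttll13 the second run gave 5.98, 5.66 and 5.54, then 4.33, 4.44 and 4.29, then 4.10, 4.02 and 3.99. Wnthigh was above both groups on every array. Its excess over Wntnegative was 2.15 (SE 0.21, adjusted p = 3.88e-07; at least 1.73 with Wntnegative at the limit). Its Wntlow call (adjusted p = 0.0491) was lost without experiment 3, 5, 7, 8 or 9. That call has no size, since the second-run Wntlow arrays were below the limit too.

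Ttll5, a glutamylase that acts on alpha-tubulin, was higher by 1.68 (SE 0.10, adjusted p = 5.70e-09) in Wnthigh than in Wntnegative and by 1.36 than in Wntlow. Its Wntlow minus Wntnegative difference of 0.32 (adjusted p = 0.0256) was lost as a call without experiment 3, 5, 7 or 8. Ttll4, a glutamylase that starts chains, was higher in Wnthigh by 1.06 (adjusted p = 4.67e-05) over Wntnegative and by 1.28 (adjusted p = 1.74e-05) over Wntlow, with a Wntlow minus Wntnegative interval of −0.57 to 0.12. On Wntlow arrays Ttll4 read 9.27, 8.21 and 9.27, then 7.35, 7.25 and 7.20, beside 9.13, 9.01 and 9.27, then 7.30, 7.66 and 7.53 in Wntnegative. Ttll11 passed in Wnthigh against both other groups (adjusted p = 3.86e-05 and 0.00178), but it was at background in every group of both runs, so no size is given. Ttll2 was at background on all arrays, between 2.71 and 3.96.

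The glycylases, which add glycine to axonemal tubulin, were Ttll3, Ttll8 and Ttll10. Ttll3, which starts glycine chains, read 12.31, 11.56 and 12.84 in Wnthigh in the first run and 10.94, 10.10 and 9.69 in the second. On Wntlow arrays Ttll3 read 9.61, 7.29 and 10.01, then 6.60, 7.45 and 6.90. On Wntnegative arrays Ttll3 read 7.06, 6.66 and 6.94, then 4.94, 5.23 and 5.18. All groups were separate in both runs. Ttll3 was higher by 5.23 (SE 0.37, adjusted p = 1.55e-08) in Wnthigh and by 1.97 (adjusted p = 0.000909) in Wntlow than in Wntnegative, and by 3.26 (adjusted p = 9.11e-06) in Wnthigh than in Wntlow.

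Ttll10, which lengthens glycine chains, read 8.45, 7.91 and 9.17 in Wnthigh, 7.19, 6.39 and 7.65 in Wntlow and 6.44, 6.48 and 6.74 in Wntnegative in the first run. The second-run values of Ttll10 were 7.36, 6.92 and 6.74, then 6.25, 6.23 and 6.01, then 5.52, 5.63 and 5.46. Wnthigh was separate from Wntnegative and from Wntlow in both runs, and Wntlow overlapped Wntnegative in the first. The differences were 1.71 (SE 0.22, adjusted p = 7.29e-06) for Wnthigh and 0.57 (95% interval 0.11 to 1.04, adjusted p = 0.0663) for Wntlow against Wntnegative. Ttll8, the other initiating glycylase, was higher in Wnthigh than in Wntnegative (adjusted p = 5.00e-07), and its Wntlow minus Wntnegative interval was −0.165 to 0.248. All 6 Wntnegative arrays of Ttll8 were at the limit. Its second-run Wnthigh arrays, at 4.70 to 4.77, were below the limit too, so no size is given.

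Ttll7 and Ttll12 stood apart from this set. Ttll7, a beta-tubulin polyglutamylase known from neurons, read 6.26, 7.67 and 6.98 in Wnthigh in the first run and 4.78, 4.98 and 5.07 in the second. On Wntlow arrays Ttll7 read 7.62, 9.03 and 8.05, then 5.66, 5.76 and 5.76. On Wntnegative arrays Ttll7 read 9.75, 9.78 and 9.68, then 7.42, 8.18 and 7.79. Every Wntnegative array lay above every array of the other groups in its run, and Wnthigh overlapped Wntlow in the first run. The difference was −2.81 (SE 0.24, adjusted p = 9.52e-08) for Wnthigh and −1.79 (adjusted p = 5.70e-05) for Wntlow against Wntnegative, and −1.02 (adjusted p = 0.00352) between Wnthigh and Wntlow. Ttll12, a divergent family member, was higher by 0.61 (adjusted p = 2.98e-05) in Wnthigh and by 0.45 (adjusted p = 0.00119) in Wntlow, and the interval between Wnthigh and Wntlow was −0.0315 to 0.343.

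**Figure D3:**
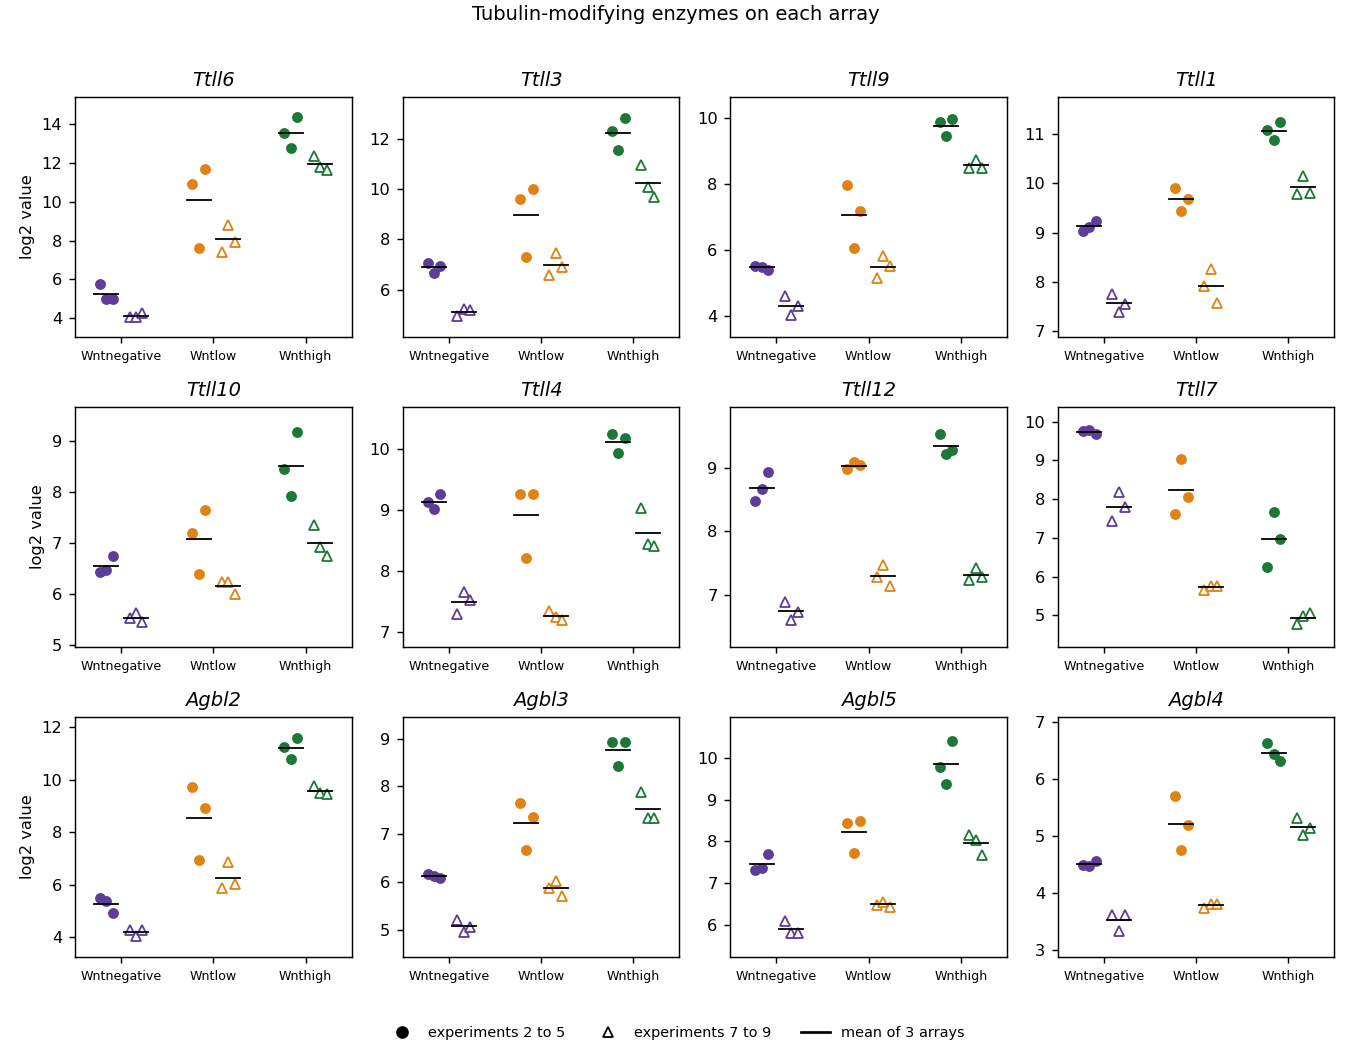
Log2 values (y axis, own scale per panel) of 12 Ttll and Agbl enzymes on each array by group, with circles for experiments 2 to 5, triangles for experiments 7 to 9 and a bar at the mean of 3 arrays. Ttll6, Ttll3, Ttll9 and Agbl2 climb over all 3 groups, Ttll4 is raised in Wnthigh alone, Ttll12 steps up from Wntnegative to Wntlow, and Ttll7 descends.

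The Agbl carboxypeptidases shorten glutamate chains. Agbl2 to Agbl5 passed as higher in all 3 comparisons, a pattern shown by 4.894% of all genes. Agbl1 stayed at background between 2.95 and 3.92. On Wnthigh arrays Agbl2 read 11.26, 10.78 and 11.59, then 9.74, 9.51 and 9.44. On Wntlow arrays Agbl2 read 9.71, 6.94 and 8.93, then 5.87, 6.86 and 6.03. On Wntnegative arrays Agbl2 read 5.48, 5.39 and 4.94, then 4.29, 4.05 and 4.27. The groups were separate in both runs. Agbl2 was higher by 5.65 (SE 0.37, adjusted p = 8.18e-09; at least 5.31 with 4 of 6 Wntnegative arrays at the limit) in Wnthigh and by 2.65 (adjusted p = 7.67e-05; at least 2.31) in Wntlow than in Wntnegative.

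Agbl3 read 8.94, 8.42 and 8.93 in Wnthigh, 7.66, 6.67 and 7.36 in Wntlow and 6.16, 6.13 and 6.09 in Wntnegative in the first run. For Agbl3 the second run gave 7.89, 7.35 and 7.35, then 5.88, 6.01 and 5.70, then 5.21, 4.94 and 5.06. The 3 Wntnegative arrays of the first run lay close together, and no groups overlapped. The difference for Wnthigh against Wntnegative was 2.55 (SE 0.15, adjusted p = 5.70e-09), and for Wntlow it was 0.95 (adjusted p = 0.000228).

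Agbl5, which removes the glutamate at the branch point of a chain, read 9.78, 9.38 and 10.42 in Wnthigh, 8.43, 7.73 and 8.49 in Wntlow and 7.32, 7.37 and 7.69 in Wntnegative in the first run. The second-run values of Agbl5 were 8.16, 8.04 and 7.68, then 6.48, 6.55 and 6.44, then 6.08, 5.79 and 5.80. Its groups were separate in both runs, by 2.23 (SE 0.17, adjusted p = 2.25e-08) for Wnthigh and 0.68 (adjusted p = 0.00610) for Wntlow against Wntnegative. Agbl4, another chain-shortening enzyme, was lower on the scale, at 5.01 to 6.62 in Wnthigh, and differed by 1.79 (adjusted p = 1.79e-08) from Wntnegative, or at least 0.82 with all 6 Wntnegative arrays set to the limit. Its Wntlow call (adjusted p = 0.0107) was lost without experiment 5 and has no size, since Wntlow lay partly at the limit too.

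The Wntlow arrays were uneven, and most raised members shared that unevenness. Of the 17 members higher by at least 1 in Wnthigh against Wntnegative, 16 had their lowest Wntlow value of the first run in experiment 4 and 14 had their highest of the second run in experiment 8. Over all genes these shares were 29.37% and 29.42%. The mean of the ciliated markers was 13.83, 9.86 and 12.53 on the Wntlow arrays of experiments 3, 4 and 5, and 9.22, 11.40 and 10.2 on those of experiments 7, 8 and 9. It was thus also lowest in experiment 4 and highest in experiment 8 of its run. This order was looked at after the values were seen, and its part in the Wntlow differences was not tested. Without the Wntlow arrays of experiments 3 and 4, a setting added after seeing the data, 17 members were higher and 2 lower in Wntlow against Wntnegative, where 12.2% and 11.6% of all genes were.

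**Figure D4:**
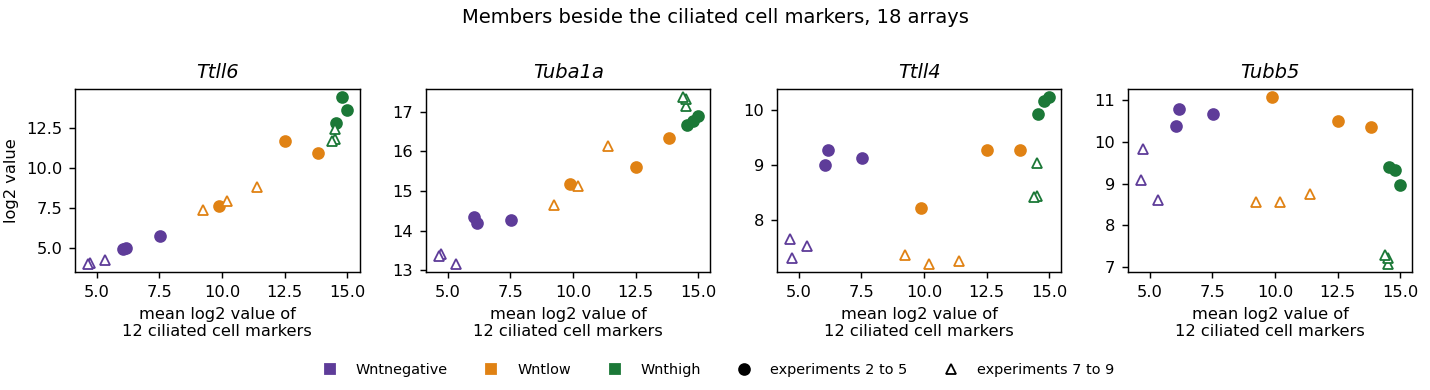
Log2 values of Ttll6, Tuba1a, Ttll4 and Tubb5 (y axis, own scale per panel) against the mean log2 value of 12 ciliated cell markers (x axis) on each of 18 arrays, coloured by group, with circles for experiments 2 to 5 and triangles for experiments 7 to 9. Ttll6 and Tuba1a are lowest on Wntnegative arrays, which have the lowest marker level, and highest on Wnthigh arrays of each run, Ttll4 is highest on the Wnthigh arrays of each run, and Tubb5 is lower on the Wnthigh arrays of each run.

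Lists of genes outside the name rule that act with tubulin are read against the shares of all genes that were higher and lower: 15.7% and 24.6% in Wnthigh against Wntnegative, 12.3% and 13.2% in Wntlow against Wntnegative, and 11.4% and 16.4% in Wnthigh against Wntlow. Of 11 measured tubulin code enzymes and partners 7 were higher and 1 lower in Wnthigh than in Wntnegative, with a median of 0.48. The 4 measured partners of Ttll1 in its polyglutamylase complex were all higher in Wnthigh than in Wntnegative: Lrrc49 by 2.31 (adjusted p = 5.70e-09), Tpgs1 by 1.01 (at least 0.83), Nicn1 by 0.81 and Tpgs2 by 0.48. Cep41, a ciliary protein needed for tubulin glutamylation, was higher by 2.12 (adjusted p = 2.23e-07; at least 1.94), and Atat1, the tubulin acetyltransferase, by 0.55 (adjusted p = 0.0344). Hdac6, which removes that acetyl mark, was the gene that was lower, at −0.25. Ccsap passed as higher in Wnthigh against both other groups. All 6 Wntnegative and all 6 Wntlow arrays of Ccsap were at the background limit. Wnthigh was at background too, with a mean level of 3.89, so no size is given for Ccsap. In Wntlow 5 of the 11 were higher and 0 lower by limma, 0 also at an unadjusted p under 0.05. Against Wntlow 5 were higher in Wnthigh and 0 lower, with 1 lower at an unadjusted p under 0.05. Agtpbp1, Vash1, Matcap1 and Matcap2 were not analysed here.

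The CCT chaperonin and prefoldin supply folded tubulin to the cofactors. Of 13 measured genes of this list, which includes Arl2, 9 were higher and 2 lower in Wnthigh than in Wntnegative, with a median of 0.49, led by Cct7 at 1.40 and Cct4 at 1.30. The lower genes were Arl2, a small GTPase of the cofactor pathway, at −1.53 (adjusted p = 9.81e-07) and the chaperonin subunit Tcp1 at −0.17. In Wntlow 8 were higher and 0 lower than in Wntnegative, 0 also at an unadjusted p under 0.05 in limma, and Wnthigh against Wntlow gave 4 higher and 2 lower.

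Of the 9 measured gamma-tubulin ring partners 3 were higher and 1 lower in Wnthigh than in Wntnegative, and 5 did not pass. Nme7, a component of the gamma-tubulin ring complex, was higher by 3.89 (SE 0.29, adjusted p = 2.07e-08), and the Golgi and centrosome scaffold Akap9 by 1.98. Ninl also passed, near the background limit and so without a size. Pcnt, the pericentrin scaffold of the centrosome, was lower, at −1.52 in Wnthigh and −1.62 in Wntlow. In Wntlow 3 were higher (Nme7, Mzt2 and Ninl) and 2 lower (Pcnt and Nedd1) than in Wntnegative, and Wnthigh against Wntlow gave 2 higher (Nme7 and Akap9) and 1 lower (Mzt2).

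Among 9 measured stathmins and severing enzymes, Katnal2, a katanin-like protein, was higher by 3.12 (at least 2.72) and the fidgetin gene Fign by 2.08 in Wnthigh than in Wntnegative, while Stmn1, a tubulin-sequestering protein of dividing cells, was lower, at −3.32 (SE 0.34, adjusted p = 6.29e-07). In Wntlow the same 3 genes passed at 1.32 (at least 0.93), 2.55 and −1.39. Wnthigh against Wntlow gave 1 higher (Katnal2) and 2 lower (Stmn1 and Fignl1). All 6 Wnthigh arrays of Fignl1 were at the background limit, so no size is given for it. Of the 9 genes 4 were at background in every group, Fignl1 among them.

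A last list, of proteins associated with microtubules, many of them of the axoneme, gave the highest median of the partner lists. Of 14 measured 13 were higher in Wnthigh than in Wntnegative, 11 in Wntlow than in Wntnegative and 13 in Wnthigh than in Wntlow, with 0 lower in each by limma and 0 at an unadjusted p under 0.05. Medians were 3.98, 2.13 and 1.91. Tekt1, Tekt2, Spag6l and Mns1 led Wnthigh against Wntnegative at 9.22, 8.22, 8.44 and 8.06, or at least 8.87, 7.80 and 8.30 for the first 3 with Wntnegative arrays below the limit set to it. Tppp3 of this list is also among the ciliated markers.

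**Figure D5:**
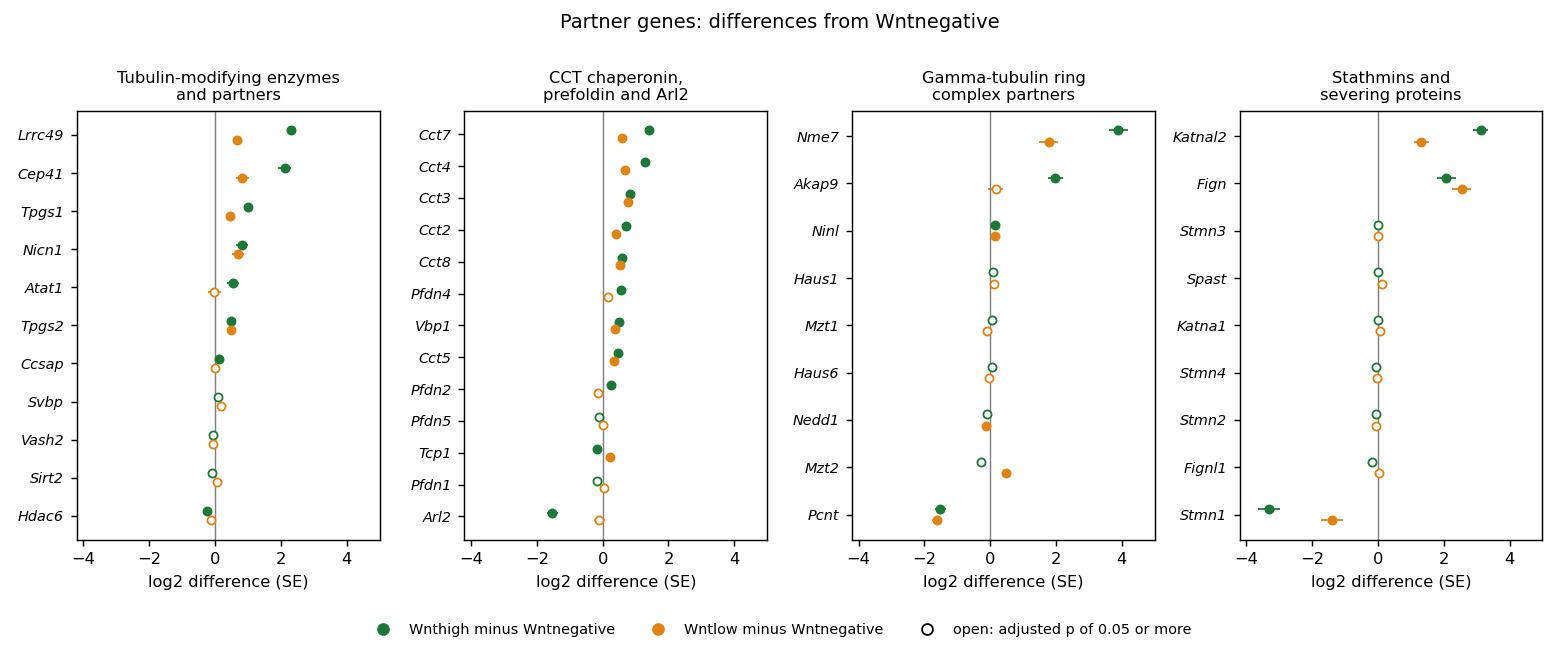
Log2 differences from Wntnegative (x axis; bars are standard errors) of the measured genes in 4 lists of partners (one panel each), green for Wnthigh and orange for Wntlow, with open circles for an adjusted p of 0.05 or more. Lrrc49 and Cep41 lead the first panel, Nme7 and Katnal2 stand out to the right, and Arl2, Pcnt and Stmn1 to the left.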

How the data were processed

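For 18 arrays the authors deposited log2 expression values (72688 probe sets each), and the submitters' processing notes name RMA; the array software and build: not given in the sources used here. Values reached 19.93, beyond a 16-bit scanner's range, so differences stay on the deposited scale. Separate normalization of the runs was read from the decimals, medians and 162 and 238 probe sets constant within each run. Leaving out control probe sets, the platform annotation pairs 30604 of 65956 with 1 symbol, 2146 with several and 33206 with none; the highest mean chose among several of a gene. The fit was limma 3.58.1 in R 4.3.3 (lmFit, eBayes, two-sided) on all 18 arrays with group and run, adjusted by Benjamini-Hochberg over 30142 genes and tested on simulated data; intervals are 95%. Replicates are pools from separate experiments.

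Same-numbered arrays come from a shared experiment, per the labels; in all 16 such pairs deviations from group means correlated (0.486 to 0.802), and within runs 12 of 16 exceeded 0.1 (0.0034 to 0.52). Values on every array are given for the 8 highest and 8 lowest members past the threshold with a size of at least 1 and above background in each comparison, and for 11 members whatever their values; genes of the partner lists are named at a size of at least 1, up to 4 a list and comparison, or where a count is 5 or fewer. Members, lists and tests were chosen with earlier results of these data known. Alternatives are in the closing section.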

Additional observations from a re-analysis of the deposited data

Results flagged for a closer look

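Over 135 sets of 6 arrays (45 members in 3 groups, after each run was centred), 4 had an array far from the others, where chance gives about 5%. Agbl1 read 3.20 in Wntnegative of experiment 7, against 3.11 on the other Wntnegative arrays of that run, and 3.76 in Wnthigh of experiment 4, against 3.90. Tubb4a read 4.43 in Wntlow of experiment 3, against 4.42 on the other Wntlow arrays of its run. Tubb6 read 5.15 in Wntlow of experiment 5, below the other Wntlow arrays of its run. All 3 genes lay at or near the background limit there.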

How the results depend on the processing

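No member that passed changed sign under any alternative. Without a block, which leaves the offset between runs as spread, counts fell to 14 higher and 2 lower (Wnthigh against Wntnegative), 4 and 0 (Wntlow against Wntnegative; 1 lower at an unadjusted p under 0.05 in limma) and 8 and 1 (Wnthigh against Wntlow). The first run by itself gave 4 lower, 6 higher with 0 lower (2 at an unadjusted p under 0.05 in limma) and 3 lower in that order, and the second run 4 lower in Wnthigh against Wntnegative. Both use fewer arrays. A size of at least 1 left 4 lower, 7 higher with 1 lower, and 3 lower. Quantile normalization within runs gave 4 lower in Wntlow against Wntnegative; the cause was not tested.

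With the experiment as a replicate block in place of the run, the counts were 25 and 7, 19 and 3, and 19 and 5, so the pairing moved no count by over 1.5 times; the calls of Tbcd and Tube1 in Wntlow against Wntnegative and of Tubb6 in Wnthigh against Wntlow were lost. Leaving out each experiment in turn gave 24 to 25 higher and 6 to 7 lower, 13 to 19 and 2 to 2, and 19 to 19 and 5 to 6. Of the members called, 29 of 32, 14 of 21 and 24 of 25 passed in every such fit. The signal over background limits the 7 members at background everywhere (Agbl1, Ttll2, Ttll11, Tubal3, Tubb1, Tubb3 and Tubb4a), for which a difference below the background limit would not be seen.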
